A study of Mus musculus with 6 samples.

Results

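Podoplanin (Pdpn) and 6 other genes were examined in mouse hepatic progenitor cells: Scarf2, Sirpa, Gpr176, Fstl1, Lbh and Palmd. These 7 of the 17893 named genes on the array had been picked because their signal was far higher in cells from Egfr fl/fl livers than in cells from Met fl/fl livers. That contrast is therefore described here and not tested for them. The choice had no numeric threshold. The array carried 11 probes for the 7 genes among its 25697 probes: 4 genes had 1 probe each, Sirpa and Lbh had 2 and Palmd had 3. Pdpn is listed in the deposited table under its older symbol Gp38.

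RNA from liver-derived hepatic progenitor cells, immature epithelial cells able to form hepatocytes and bile duct cells, was hybridised to 6 single-colour Illumina bead arrays. Of these, 3 came from Egfr fl/fl mice and 3 from Met fl/fl mice, all on a C57BL/6 background and all from livers described as controls. A floxed (fl) allele carries recombination sites around part of the gene and stays intact without Cre recombinase, so every sample is homozygous for a floxed receptor gene, Egfr (epidermal growth factor receptor) or Met (hepatocyte growth factor receptor), and neither gene is stated to be deleted. The labels give no age, culture history, slide or number of animals, and leave unstated whether a genotype's samples were taken from separate mice or cultures. The spread between samples may therefore be technical, and genotype cannot be told apart from animal, culture or slide where each genotype had its own.

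The 7 genes do not form a single pathway. Podoplanin is a mucin-type membrane glycoprotein of lymphatic endothelium, lung alveolar type I cells and kidney podocytes. It binds the platelet receptor encoded by Clec1b and, inside the cell, the ezrin, radixin and moesin proteins that link membrane to actin. Scarf2 and Sirpa are also cell-surface proteins. Scarf2 is a scavenger receptor family member with EGF-like repeats, and Sirpa is an inhibitory receptor, best known from macrophages and neurons, that binds Cd47 and recruits the phosphatases Ptpn6 and Ptpn11. Gpr176 is an orphan G-protein-coupled receptor studied in the circadian pacemaker of the mouse brain, where it acts through the G protein subunit Gnaz. Fstl1 is a secreted glycoprotein of the follistatin and SPARC families that can bind Bmp4. Lbh is a small transcriptional cofactor known as a WNT target in mammary epithelium, and Palmd (palmdelphin) is a cytoplasmic relative of paralemmin.

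Promoter sequences of 250 bases before and 50 bases after the annotated start were taken from RefSeq (GRCm38.p6) for 5 of the 7 genes. Sirpa and Palmd had no match. The promoters of Pdpn (chr4:143299515-143299814, minus strand), Scarf2 (chr16:17797032-17797331, plus strand) and Lbh (chr17:72918055-72918354, plus strand) are shown because they are the least GC-rich, the most GC-rich and the only TATA-containing windows among them. Capitals mark the motifs that were searched and found on either strand, which are GGGCGG, read by SP1, and the TATA box letters TATAAA.
Pdpn: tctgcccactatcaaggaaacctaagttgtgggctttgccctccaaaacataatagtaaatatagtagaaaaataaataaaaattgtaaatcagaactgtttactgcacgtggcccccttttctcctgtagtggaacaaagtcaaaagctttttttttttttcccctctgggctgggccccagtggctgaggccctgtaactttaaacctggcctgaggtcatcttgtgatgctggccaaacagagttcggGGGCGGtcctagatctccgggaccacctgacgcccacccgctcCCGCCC
Scarf2: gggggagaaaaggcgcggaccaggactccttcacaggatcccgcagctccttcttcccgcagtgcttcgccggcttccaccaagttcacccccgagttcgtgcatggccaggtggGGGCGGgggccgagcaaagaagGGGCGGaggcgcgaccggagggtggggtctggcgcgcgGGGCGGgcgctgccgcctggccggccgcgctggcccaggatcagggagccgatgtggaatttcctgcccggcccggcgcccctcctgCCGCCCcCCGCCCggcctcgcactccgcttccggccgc
Lbh: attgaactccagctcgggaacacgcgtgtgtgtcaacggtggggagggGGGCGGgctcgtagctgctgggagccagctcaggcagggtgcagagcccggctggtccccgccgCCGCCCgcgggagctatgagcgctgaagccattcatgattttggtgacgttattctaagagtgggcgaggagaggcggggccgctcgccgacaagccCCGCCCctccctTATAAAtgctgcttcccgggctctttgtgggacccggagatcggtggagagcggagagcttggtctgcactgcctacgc

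The Pdpn window was 48.7% G or C, against 74.3% for Scarf2, 65.0% for Lbh, 66.7% for Fstl1 and 66.3% for Gpr176, and the median over all 32851 promoters of the table was 52.7%. GGGCGG was present in 5 of 5 windows, with 5 copies in Scarf2, 3 in Lbh and 2 in each of the others, and 35.7% of all promoters held it. Both Pdpn copies lay downstream of the annotated start. TATAAA was present only in Lbh among the 5 (13.6% of all promoters). The AP-1 letters TGANTCA (7.81% of all promoters) and the TEAD letters GGAATG (14.7%) were in 0 of the 5 windows. No motif searched overlapped another. These are letter matches in a short window and say nothing about whether a factor binds.

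Across the arrays, the mean deposited intensity ran from 241 to 398 units and 43.8% to 45.3% of probes were detected, meaning a detection p-value under 0.05 against the negative controls of the same array. Arrays correlated at r = 0.967 to 0.992 within a genotype and 0.891 to 0.921 between genotypes over 11578 tested probes. Differences were common: limma called 41.4% of 8549 tested genes at a threshold of 0.05 after Benjamini-Hochberg adjustment, 18.6% as higher in Egfr fl/fl and 22.8% as higher in Met fl/fl. The median log2 difference over all tested genes, Met fl/fl minus Egfr fl/fl, was 0.068. The progenitor label was compared with marker genes. Krt8, Krt18, Krt19, Cdh1, Sox9 and Spp1, genes of biliary and progenitor epithelium, were detected on all 6 arrays, and the progenitor marker Prom1 on none. Of 14 hepatocyte genes 9 were detected on no array, Alb among them, while Ttr and Hnf4a were detected on all 6. On its brightest probe Egfr averaged 9.43 ± 0.21 (SD, n = 3) in log2 units in Egfr fl/fl, compared with 8.996 ± 0.072 in Met fl/fl, a difference of -0.43 (adjusted p = 0.0425, up to 0.151 over the alternatives tried). Its 2 other tested probes gave -0.61 (adjusted p = 0.0199) and -0.35 (adjusted p = 0.139). The only Met probe passed detection on 2 Egfr fl/fl arrays and 0 Met fl/fl arrays, too few for a test.

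All 7 genes were detected on every Egfr fl/fl array, and in all 7 the lowest Egfr fl/fl value lay above the highest Met fl/fl value on the brightest probe. Over all tested genes, 23.3% showed that order, and since the genes were chosen on this contrast nothing is read from the count. The difference of log2 means (Met fl/fl minus Egfr fl/fl) ran from -7.60 for Pdpn to -5.04 for Lbh, with a median of -5.29. These differences take undetected signals at face value. These genes had been described as restricted to the Egfr fl/fl cells, but only 4 of the 7 were undetected on every Met fl/fl array. Of the 1670 tested genes at least as bright in Egfr fl/fl as the dimmest of the 7, 6 (0.359%) were undetected there, these 4 included. Since the genes were chosen on this contrast, the count of 4 is a description and upholds nothing. Pdpn, Scarf2, Gpr176 and Palmd were detected on 0 Met fl/fl arrays by their brightest probe, Sirpa on 1, and Fstl1 and Lbh on all 3. All 7 passed the filter on dim probes, which asked for detection on at least 3 arrays, and the 4 undetected in Met fl/fl passed it through the Egfr fl/fl arrays alone. In RNA from a whole sample, fewer cells expressing a gene and less RNA of it per cell cannot be told apart.

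**Figure D1:**
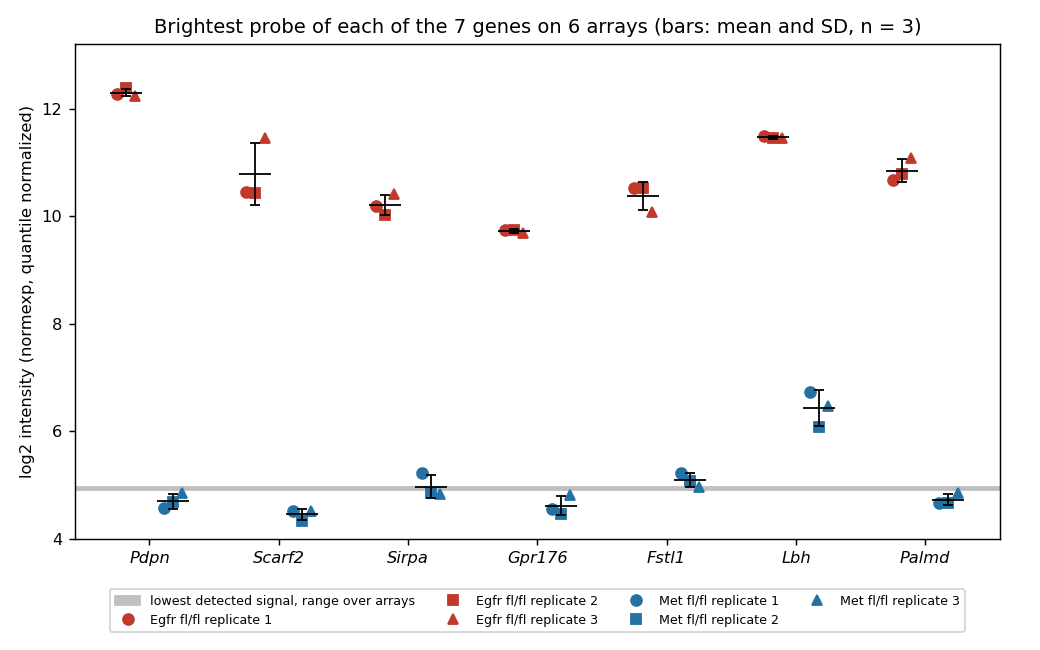
Log2 intensity (vertical axis, normexp background correction and quantile normalization) of the brightest probe of each gene on the 6 arrays, with red for Egfr fl/fl and blue for Met fl/fl. Bars show the mean and SD of 3 arrays and the grey band the range of the lowest detected signal. Every red point lies at 9.68 or above, and only Lbh has all its blue points well clear of the band.

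Podoplanin had the largest difference of the 7. In replicate order 1, 2 and 3, its deposited intensity reached 4206, 4491 and 5301 units in Egfr fl/fl. In Met fl/fl it was -1.33, 3.01 and 7.74 units, and values below 0 occur throughout the deposited table. The Met fl/fl detection p-values were 0.504, 0.244 and 0.102, so the signal there was within the range of the negative controls. On the log2 scale the means were 12.30 ± 0.07 (SD, n = 3) and 4.70 ± 0.14. Where a probe was not detected on 1 or more Met fl/fl arrays, the fold is given as a lower bound: the Egfr fl/fl mean over a Met fl/fl mean in which each array enters at its lowest detected signal, or at the probe's own signal where that is larger. By this bound Pdpn was at least 163-fold higher in the Egfr fl/fl cells.

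Scarf2, the scavenger receptor family member, read 1124, 1139 and 3070.4 units in Egfr fl/fl, compared with -4.32, -16.9 and -4.11 units in Met fl/fl. The Met fl/fl detection p-values ran from 0.682 to 1, so no array came near detecting it. Replicate 3 was the high Egfr fl/fl array and the groups lay far apart. The log2 means were 10.78 ± 0.58 and 4.45 ± 0.10 (SD, n = 3 each), a difference of at least 57.0-fold. With the undetected Met fl/fl signals taken at face value, the log2 difference was -6.33 ± 0.27 (SE) with all arrays and -5.93 without Egfr fl/fl replicate 3.

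Sirpa, the receptor for Cd47, read 919, 849 and 1518 units in Egfr fl/fl on its brighter probe, against 24.7, 8.58 and 7.66 units in Met fl/fl. Of the Met fl/fl arrays only replicate 1 detected it, the detection p-values being 0.0138, 0.0902 and 0.103. The difference was at least 35.8-fold. The other Sirpa probe read 15.0, 9.96 and 9.89 units in Egfr fl/fl, compared with -4.75, 2.98 and -3.93 units in Met fl/fl. It was detected on Egfr fl/fl replicate 1 alone, was not tested, and gives no bound above 1-fold. Nothing in the files used here says which transcripts each probe covers. Sirpa also has close relatives in the mouse genome. Of these, Sirpb1a had 3 probes, and none was detected on any of the 6 arrays.

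Gpr176, the orphan receptor, read 667, 683 and 912 units in Egfr fl/fl, compared with -1.73, -7.21 and 7.11 units in Met fl/fl, with Met fl/fl detection p-values from 0.118 to 0.871. After normalization its Egfr fl/fl values were close together, at 9.75, 9.74 and 9.68 on the log2 scale. It was at least 27.4-fold higher in the Egfr fl/fl cells, the smallest bound among the 4 genes undetected in Met fl/fl.

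Fstl1, the secreted glycoprotein, read 1177, 1217 and 1214 units in Egfr fl/fl, compared with 25.02, 14.7 and 10.9 units in Met fl/fl. It was detected on every Met fl/fl array, but narrowly, with detection p-values of 0.0138, 0.0263 and 0.0464. The log2 means were 10.37 ± 0.26 and 5.09 ± 0.13 (SD, n = 3 each), which is 39.0-fold. Egfr fl/fl replicate 3 was the low array of its group after normalization, at 10.07 against 10.53 and 10.52.

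Lbh, the transcriptional cofactor, was the gene with the clearest remaining signal in Met fl/fl. Its brighter probe read 2329.5, 2332 and 3063 units in Egfr fl/fl, compared with 125, 49.6 and 65.0 units in Met fl/fl, each Met fl/fl array having a detection p of 0.00125, the step of 1 negative control. The log2 means were 11.46 ± 0.03 and 6.42 ± 0.33 (SD, n = 3 each), a 32.9-fold difference. The other probe read 383, 448 and 562 units against 14.9, 6.63 and 2.51 units, passed detection on 1 Met fl/fl array, and its bound was 16.8-fold. Both Lbh probes had their highest Met fl/fl value on replicate 1.

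Palmd, the palmdelphin gene, had 3 probes, all undetected in Met fl/fl. The brightest read 1306, 1463 and 2431 units in Egfr fl/fl, compared with 3.50, 2.27 and 7.96 units in Met fl/fl. The next read 1272, 1349 and 2212 units against 3.39, -7.90 and -1.24 units, so both showed replicate 3 as the high Egfr fl/fl array. Their bounds were 59.7-fold and 56.0-fold. The remaining probe was dim in Egfr fl/fl too, at 35.1, 53.3 and 44.8 units, and its bound was 2.01-fold. With the undetected Met fl/fl signals taken at face value, the fitted log2 difference of the brightest Palmd probe was -6.12 ± 0.18 (SE). It was -4.59 when the 3 probes were averaged.

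**Figure D2:**
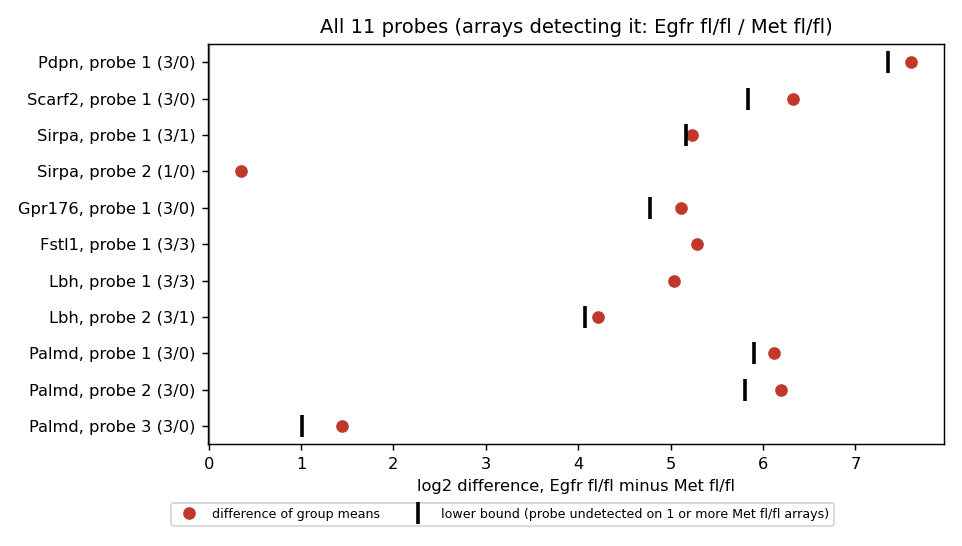
Log2 difference, Egfr fl/fl minus Met fl/fl, of all 11 probes (red points), with the lower bound where a probe was undetected on 1 or more Met fl/fl arrays (black marks). The dim Sirpa probe was also undetected on every Met fl/fl array, but its bound is negative and has no mark. Of the 11 probes, 9 lie above 4 and the 2 others are the dim probes of Sirpa and Palmd.

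In all 11 probes the groups did not overlap, an order that 23.3% of tested genes also showed and from which nothing is read here, since the genes were chosen on this contrast. Of the 11 probes, 7 were undetected on every Met fl/fl array, and nothing is read from this count either. Because probes of a gene share the same 6 RNA samples, their likeness is not independent evidence. The authors' normalized matrix showed the same picture. In it the Pdpn probe averaged 4943 ± 267 units (SD, n = 3) in Egfr fl/fl, compared with 3.89 units in Met fl/fl, and Scarf2 averaged 1819 units in Egfr fl/fl, compared with -8.56 units in Met fl/fl.

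Within Egfr fl/fl, which array was high differed among the 7 genes. Replicate 3 had the highest deposited intensity in 6 of the 7 genes, the exception being Fstl1, on an array whose mean intensity was also the highest of its group. After normalization it was the highest in 3, namely Scarf2, Sirpa and Palmd. Relative to the mean of replicates 1 and 2, replicate 3 was higher by 1.01 on the log2 scale for Scarf2, by 0.34 for Palmd and by 0.30 for Sirpa. It was lower for Fstl1 (-0.46), Pdpn (-0.089), Gpr176 (-0.071) and Lbh (-0.027). The central 95% of the tested genes lay between -0.87 and 0.97 on this measure, so Scarf2 was outside that range and the other 6 were within it. The SD in Egfr fl/fl ran from 0.027 (Lbh) to 0.58 (Scarf2), with a median of 0.19 over the 7 genes and 0.21 over all tested genes. With 3 arrays a group, no test was made of these patterns.

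**Figure D3:**
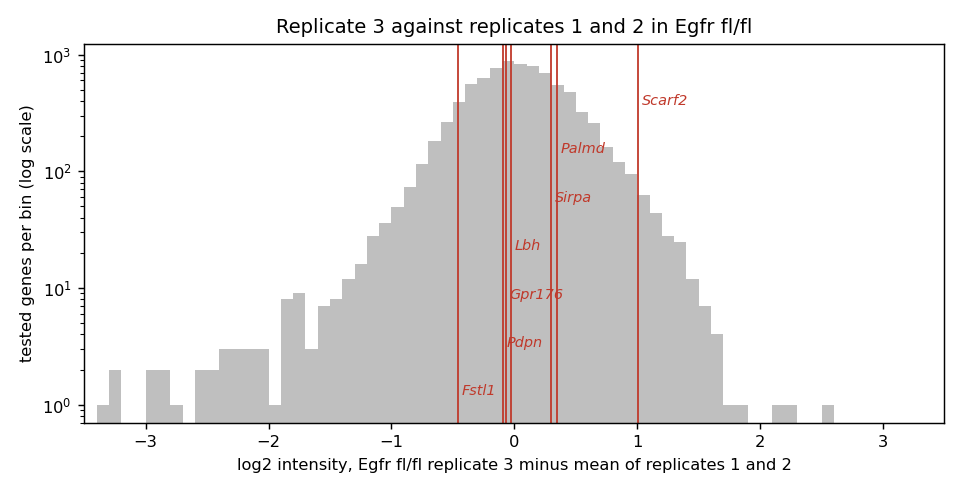
Histogram over 8549 tested genes of log2 intensity on Egfr fl/fl replicate 3 minus the mean of replicates 1 and 2 (horizontal axis, with the count per bin on a log scale). Red lines mark the 7 genes, and Scarf2 at 1.01 lies in the upper tail.

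Only 12 of the 8549 tested genes had a fitted difference at least as large as that of Lbh in the direction of Egfr fl/fl, and 36 (0.421%) differed by 16-fold or more that way. The 7 genes took ranks 2 (Pdpn), 3 (Scarf2), 4 (Palmd), 8 (Fstl1), 9 (Sirpa), 11 (Gpr176) and 12 (Lbh). The ranks describe the choice of the genes, with no bound applied. By the root mean square difference of centred log2 profiles over the 6 arrays, the genes most like Pdpn were Wfdc2 (0.25), Upk1b (0.84), Gsta3 (0.87), Nes (0.97) and Pdzk1ip1 (1.21), which took the remaining 5 ranks. Of the chosen genes Scarf2 (0.74) and Palmd (0.75) were nearest to Pdpn and Lbh (1.30) farthest. Wfdc2 encodes a secreted protein with protease-inhibitor-like domains, Upk1b a uroplakin of urothelium, Gsta3 a glutathione transferase, Nes the intermediate filament nestin and Pdzk1ip1 a small membrane protein. This likeness is set almost wholly by the difference between the groups, and all 6 points come from the same arrays.

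**Figure D4:**
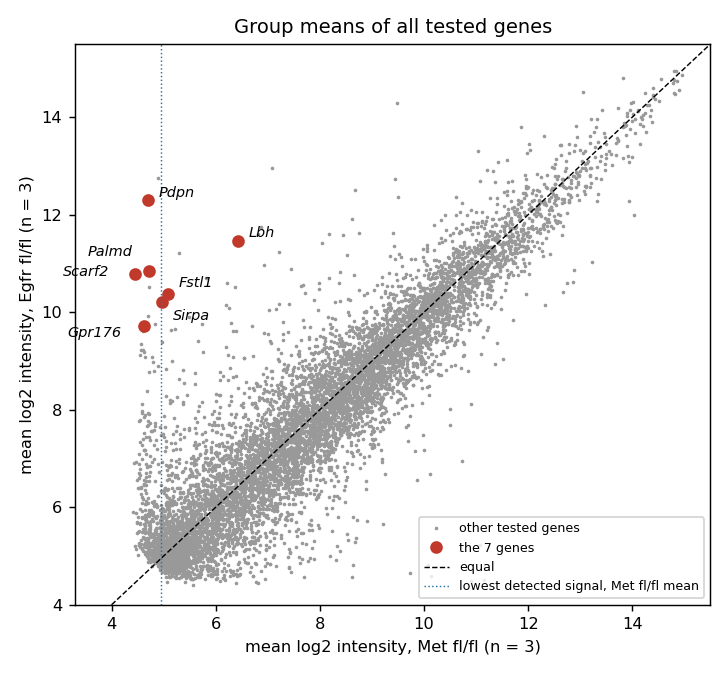
Mean log2 intensity in Egfr fl/fl (vertical axis) against Met fl/fl (horizontal axis) for all tested genes (grey), with the 7 genes in red, the line of equality dashed and the mean lowest detected signal in Met fl/fl dotted. Only Lbh and, narrowly, Fstl1 and Sirpa lie to the right of the dotted line.

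The binding partners and regulators of podoplanin were measured as a list of 18 genes, of which 16 were on the array and 12 were tested. Of the 12, 6 had their higher level in Egfr fl/fl and 3 had it in Met fl/fl (limma, against 18.6% and 22.8% of all genes), with a median log2 difference of -0.55. The platelet receptor gene Clec1b was not tested, having been detected on 1 of 6 arrays. The only probe of Rhoa, also on the list, was detected on none. The hyaluronan receptor Cd44, which can associate with podoplanin, read 9.52, 9.51 and 9.27 in log2 units in Egfr fl/fl, compared with 7.99, 7.46 and 7.45 in Met fl/fl. It was 3.49-fold higher in Egfr fl/fl, a log2 difference of -1.80 ± 0.18 (SE, adjusted p = 5.02e-05), while its 5 other probes were too dim to test. The AP-1 subunit Jun was 2.10-fold higher (adjusted p = 0.00039) and the actin linker Msn 1.89-fold higher in Egfr fl/fl (adjusted p = 0.00154). In the other direction, the membrane protease Mmp14 was 1.68-fold higher in Met fl/fl (adjusted p = 0.00763) and the galectin Lgals8 1.49-fold higher (adjusted p = 0.00893). Prox1, a transcription factor that drives podoplanin in lymphatic endothelium, was detected by its brighter probe on 0 Egfr fl/fl arrays and all 3 Met fl/fl arrays. On that probe it ran opposite to Pdpn, at least 1.46-fold higher in the Met fl/fl cells (adjusted p = 0.00406). The other Prox1 probe was detected on no array.

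For the Sirpa and Cd47 axis, 13 of 14 listed genes were on the array and 8 were tested, 3 of them with the higher level in Egfr fl/fl and 2 with it in Met fl/fl (median -0.23). The shares over all tested genes were 18.6% and 22.8%. Cd47, the ligand of Sirpa, read 9.65, 9.51 and 9.83 in Egfr fl/fl, compared with 8.85, 8.72 and 8.57 in Met fl/fl on the log2 scale. It was 1.93-fold higher in Egfr fl/fl, a log2 difference of -0.95 ± 0.15 (SE, adjusted p = 0.000748). Cd47 was detected on all 6 arrays and Sirpa on 4. Ptpn11, the phosphatase that binds Sirpa, was 1.36-fold higher in Egfr fl/fl (adjusted p = 0.00991). Of its 2 other tested probes 1 passed (-0.46, adjusted p = 0.0428) and 1 did not (-0.41, adjusted p = 0.101). The related Ptpn6, the main partner in blood cells, was detected on no array. Sftpd, a surfactant collectin that can bind Sirpa, was at least 1.21-fold higher in the Egfr fl/fl cells (adjusted p = 0.0033). The adaptor Skap2 was 1.74-fold higher in Met fl/fl (adjusted p = 0.00404), and the kinase Ptk2b differed by 0.80 ± 0.26 (SE, adjusted p = 0.0339). The Ptk2b call was lost when any of Egfr fl/fl replicates 1 and 2 and the 3 Met fl/fl replicates was left out, and that of Ptpn11 without Egfr fl/fl replicate 1 or Met fl/fl replicate 2. The list then counted 3 calls without Egfr fl/fl replicate 1 and 3 without Met fl/fl replicate 2, in place of 5. Over all alternatives the adjusted p ran up to 0.123 for Ptk2b and 0.0578 for Ptpn11.

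Relatives of Fstl1 and its partners went mostly the other way, though few could be tested. Of 17 listed genes 14 were on the array and 4 were tested, with 3 higher in Met fl/fl, 1 higher in Egfr fl/fl and a median of 1.37, and 8 were detected on no array. Sparc, the matrix glycoprotein that shares its extracellular domain type with Fstl1, was 5.54-fold higher in Met fl/fl (log2 difference 2.47 ± 0.16 SE, adjusted p = 2.68e-06). Its values were 9.06, 8.91 and 9.15 in Egfr fl/fl, compared with 11.79, 11.55 and 11.18 in Met fl/fl. Bmp4, a ligand that Fstl1 binds, was 2.26-fold higher in Met fl/fl (adjusted p = 0.000621) and Cd14, the co-receptor of Tlr4, 2.96-fold higher (adjusted p = 4.12e-05). Tlr4 itself was detected on 1 array and not tested. Fst (follistatin) followed Fstl1: it was detected on all 3 Egfr fl/fl arrays and 0 Met fl/fl arrays, at least 1.99-fold higher in the Egfr fl/fl cells (adjusted p = 0.000336).

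Of the relatives of Palmd, Palm could be tested directly. Palm, the founding member, read 6.87, 6.23 and 6.59 in log2 units in Egfr fl/fl and was undetected on every Met fl/fl array, at least 3.07-fold higher in the Egfr fl/fl cells (adjusted p = 5.45e-05). The other Palm probes were too dim to test. Pakap, whose probes the table lists as Akap2 and Palm2, was at least 5.27-fold higher in the Egfr fl/fl cells on the brightest Akap2 probe (adjusted p = 8.85e-06). A further Akap2 probe gave a fitted log2 difference of -0.74 (adjusted p = 0.0185), and both Palm2 probes were undetected on all arrays. The Pakap call thus comes from Akap2 probes, and of the paralemmin genes proper only Palm was tested.

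The lists around Scarf2, Gpr176 and Lbh are read beside the 41.4% of all tested genes that were called. Of 5 tested scavenger receptors and MEGF proteins 1 had the higher level in Met fl/fl and 0 had it in Egfr fl/fl (median 0.16), and 8 of the 14 on the array were detected on none, among them Scarf1, a close relative of Scarf2. The only call was Pear1 (0.54 ± 0.17 SE, adjusted p = 0.0285). It was lost without Egfr fl/fl replicate 1, Met fl/fl replicate 1 or Met fl/fl replicate 3, leaving a count of 0 (adjusted p up to 0.18 over all alternatives). Another tested Pear1 probe, undetected in Egfr fl/fl, gave 0.70 (adjusted p = 0.0134). Of 10 tested genes of Gpr176 signalling and the circadian clock 2 had the higher level in Met fl/fl and 1 had it in Egfr fl/fl (median 0.23). Gnaz, the G protein subunit of Gpr176, averaged 6.71 ± 0.47 in the Egfr fl/fl cells and 6.72 ± 0.30 in the Met fl/fl cells (SD, n = 3 each), and its difference of 0.0027 ± 0.27 (SE) did not pass (adjusted p = 0.995). Its sign turned with median scaling, cyclic loess, an offset of 50 and with some arrays left out.

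Among clock genes, Dbp was at least 3.82-fold higher in the Met fl/fl cells (adjusted p = 7.90e-05) and Per1 2.16-fold higher (adjusted p = 0.0146), while Per2 was 1.85-fold higher in Egfr fl/fl (adjusted p = 0.00286). The Per1 call was lost without Egfr fl/fl replicate 1, Met fl/fl replicate 1 or Met fl/fl replicate 3 (adjusted p up to 0.0576). Its other probe gave 1.31 (adjusted p = 0.024), and another Per2 probe gave -0.23 (adjusted p = 0.356). With Egfr fl/fl replicate 3 left out, the clock list counted 5 calls in place of 3. Of 3 tested genes around Lbh and WNT transcription 1 was higher in Met fl/fl. That was Axin2, a WNT target undetected in Egfr fl/fl and at least 2.00-fold higher in the Met fl/fl cells (adjusted p = 0.000257), opposite to Lbh. Lef1 and Trp63 were undetected on all arrays.

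**Figure D5:**
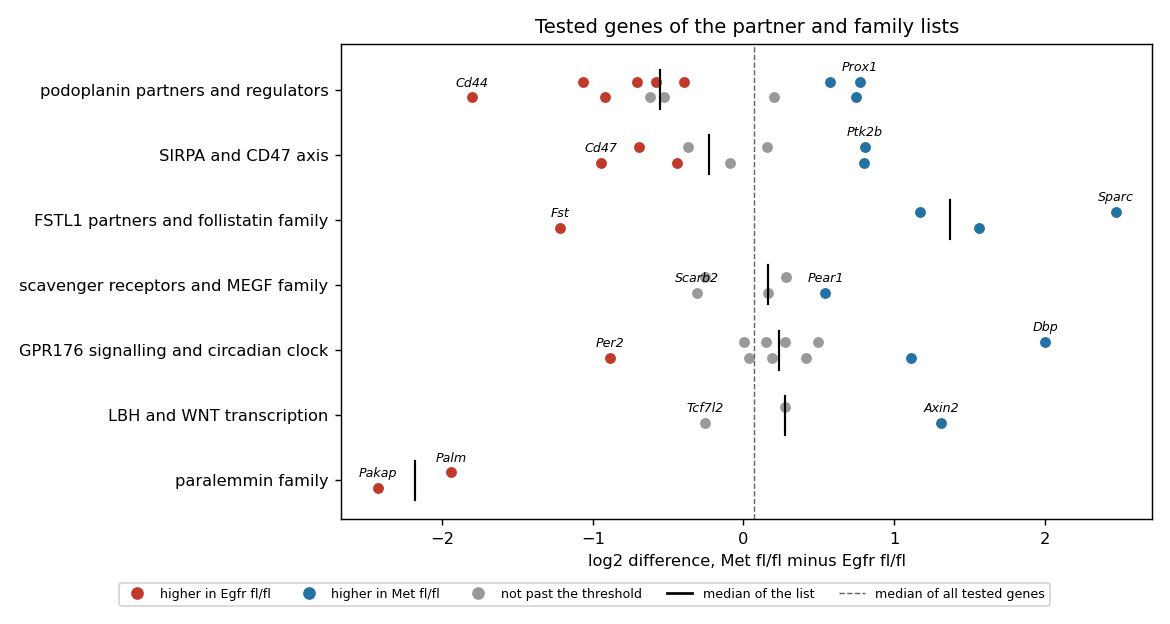
Log2 difference, Met fl/fl minus Egfr fl/fl, of each tested gene in the 7 partner and family lists (horizontal axis), in red where higher in Egfr fl/fl, blue where higher in Met fl/fl and grey where not past the threshold. Black bars are list medians and the dashed line the median of all tested genes at 0.068. The paralemmin list (Palm and Pakap) lies at -2.18 and the Fstl1 list at 1.37.

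Markers of cell types known to express podoplanin or Sirpa were examined in the same samples. They are read beside the 41.4% of all tested genes that were called. For lymphatic endothelium 2 of 9 listed genes were tested. Lyve1, Ccl21a and Reln were detected on no array, and the call for Prox1, from its brighter probe alone, was opposite to Pdpn. Flt4, a receptor of lymphatic endothelium, was detected on all 6 arrays (0.49 ± 0.19 SE, adjusted p = 0.0636), and with Egfr fl/fl replicate 3 or Met fl/fl replicate 3 left out the list counted 2 calls in place of 1, both higher in Met fl/fl. The summed level of the list, in normalized intensity units, was 75.4 to 84.7 on the Egfr fl/fl arrays and 101 to 139.98 on the Met fl/fl arrays. Such sums, here and below, take in undetected genes at signals near the negative controls. Small sums consist in large part of these signals, and no difference between groups is read from them. For vascular endothelium 3 of 10 genes were tested and none passed the threshold, Eng having the largest difference (0.35 ± 0.17 SE, adjusted p = 0.126). Cdh5, Tie1, Emcn and Vwf were undetected on all arrays. The summed level was 84.5 to 115 against 120.005 to 141, most of it from genes near the negative controls. For macrophages and myeloid cells 3 of 13 genes were tested, and Ptprc, Adgre1, Lyz2, Itgam, Tyrobp and Fcer1g were detected on no array. Csf1r was at least 1.47-fold higher in the Egfr fl/fl cells (adjusted p = 0.0194), a call lost without Met fl/fl replicate 2 or 3 (adjusted p up to 0.0704), and Cd14 was higher in Met fl/fl. The summed myeloid level was 455 to 601 against 1258 to 1411, of which Cd14 made up 72.4% to 92.7%. Without Cd14 it was 125 to 141 in Egfr fl/fl against 103 to 119 in Met fl/fl, again mostly from genes near the negative controls.

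Some mesothelial and mesenchymal markers were higher in Egfr fl/fl, as were 18.6% of all tested genes, and 22.8% were higher in Met fl/fl. For mesothelium 5 of 9 listed genes were tested: in Egfr fl/fl Upk1b was higher by 60.9-fold and Gpm6a by at least 1.82-fold (adjusted p = 0.000281), Msln was 5.604-fold higher in Met fl/fl (adjusted p = 2.98e-06), and Lrrn4 was undetected on all arrays. The other probes of Upk1b and Gpm6a were detected on no array, and Upk1b is among the genes most like Pdpn named above. The summed level was 4276 to 5590.4 units in Egfr fl/fl and 3183 to 3812 in Met fl/fl, with 36.9% to 58.1% from Krt19, which biliary cells also express. For stellate cells and fibroblasts 3 of 13 genes were tested and all 3 were higher in Egfr fl/fl. Acta2, smooth muscle actin, was at least 17.7-fold higher by its brightest probe (adjusted p = 2.63e-06), with other tested probes at -1.11, -1.05 and -0.51 on the log2 scale, of which the last did not pass (adjusted p = 0.0737). Vim was 2.96-fold higher (adjusted p = 1.22e-05) and Dcn at least 1.35-fold (adjusted p = 0.00418). The summed level of the list was 4309 to 4609 units against 1182 to 1539.9. Without Vim it was 423 to 859 against 101 to 111, the latter mostly from genes near the negative controls. The defining genes Col1a1, Col3a1, Lum, Pdgfra, Lrat, Thy1 and Postn were detected on no array. Most of the undetected markers had 1 probe, and an undetected probe does not show that a gene is off. Whether cells of any of these types had a part in the signal of the 7 genes was not tested.

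Epithelial markers were high in both groups. Over all tested genes, 18.6% were called higher in Egfr fl/fl and 22.8% higher in Met fl/fl. Of 9 tested biliary and progenitor genes 5 were higher in Egfr fl/fl, led by Sox9 (3.68-fold, adjusted p = 1.97e-05), Krt7 (2.88-fold, adjusted p = 0.000551) and Cdh1 (2.58-fold, adjusted p = 1.38e-05), and 0 were higher in Met fl/fl. The summed level was 30069 to 33374 units in Egfr fl/fl and 18980 to 21055 in Met fl/fl. Of 4 tested hepatocyte genes 2 were higher in Met fl/fl, Hnf4a by 2.69-fold (adjusted p = 1.39e-05) and Apoa1 by at least 2.37-fold (adjusted p = 0.000304), and Serpina1a was at least 1.502-fold higher in the Egfr fl/fl cells (adjusted p = 0.00858). The summed hepatocyte level was 2843 to 3664 units against 4539.9 to 5646, of which Ttr made up 60.4% to 79.2%. Ttr itself did not pass (0.32 ± 0.16 SE, adjusted p = 0.139).

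The neighbours of the 7 genes on their chromosomes were also read, taking on each side the nearest protein-coding gene with a probe. Of the 14 neighbours 3 were tested and 8 were detected on no array. Of the 3, 1 was called, beside 41.4% of all tested genes, and nothing is read from so small a count. Klhl22, next to Scarf2 on chromosome 16, was higher in Egfr fl/fl by a log2 difference of -0.75 ± 0.18 (SE, adjusted p = 0.00884), with another probe at -0.47 (adjusted p = 0.161). Ndufb4 next to Fstl1 (-0.57 ± 0.21, adjusted p = 0.0533) and Frrs1 next to Palmd (0.36 ± 0.20, adjusted p = 0.188) did not pass. On both sides of Pdpn, Kazn and Pramel1 were undetected on all arrays, as were Ypel5 and Capn13 on the sides of Lbh.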

How the data were processed

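The authors' deposited tables held, for 6 Illumina arrays, a non-normalized intensity and a detection p-value per probe (per the file headers), and a matrix of normalized intensity values on a linear scale. Per the submitters' processing notes GenomeStudio 2011.1 was used; the array model and background method were not found in the labels. Deposited intensity fell below 0 for 26.9% to 31.1% of probes, and the detection p-value moves in steps of 1 in 798 negative controls. Intensities were corrected with limma 3.58.1 (R 4.3.3) by normexp, with the negative controls estimated through those p-values. After adding 16 units as an offset, log2 values were quantile normalized. The offset understates changes of dim probes. Probes detected (p under 0.05) on 3 or more arrays entered lmFit and eBayes (intensity trend), adjusted by Benjamini-Hochberg at 0.05 over 11578 probes. A gene was its brightest tested probe. Symbols were updated through RefSeq (2906 of the distinct symbols through a synonym). The fit was checked on simulated data.

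The genes and lists were chosen with earlier results of these data known. Genes named are the 7 and all their probes, up to 3 per direction with the largest difference from each list (or the largest where none passed), close relatives and ligands, the 5 most like Pdpn, Egfr and Met, and marker genes undetected on the arrays. The chromosome neighbours were added later. The precision is limited by 3 arrays per group. Alternatives covered the normalization, background, offset, filter, variance model, array weights, replicate block, probe averaging and each array left out.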

Additional observations from a re-analysis of the deposited data

How the results depend on the processing

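The 7 genes kept their direction in all 119 values from 17 alternative settings, 100 of them within 1 SD of the reported value. These values are differences of group means, which the filter, variance model, array weights and replicate block cannot change. Their values under those settings match by construction, also where a gene undetected in Met fl/fl would fail the strict filter. Since the genes were chosen on this contrast, nothing is read from the count. The Palmd difference went from -6.12 to -4.59 with its probes averaged, which takes in the dim probe. An offset of 50, which shrinks the difference of dim signals by construction, gave a median over the 7 genes of -4.57 in place of -5.29. With arrays left out that median ran from -5.41 to -5.25. The count of called genes, 3541, ran from 2554 to 4378 with arrays left out and was 5255 with array weights. The scavenger receptor list had 0 calls with median scaling, with no filter and with detection p under 0.01 on all 6 arrays, 2 with array weights and 0 to 1 with arrays left out. The Lbh and WNT list had 0 under that strict filter, which leaves fewer genes, and no paralemmin gene passed it. The clock list had 6 calls with array weights and 2 to 5 with arrays left out, and the Sirpa list 3 to 6; the cause was not tested. Gnaz turned sign with median scaling (-0.089), cyclic loess (-0.094) and an offset of 50 (-0.0034), and ran from -0.15 to 0.27 with arrays left out. Calls were lost in 28 of 695 values of 42 named tested genes, for 6 genes: Ptk2b, Pear1, Per1, Ptpn11, Csf1r and Egfr. The replicate numbers did not pair the arrays (correlations of deviations 0.24, -0.15 and 0.32 for numbers 1, 2 and 3). With the replicate block the genes called between genotypes numbered 3880, and no list count moved by over 1.5 times. Signals near the negative controls limit the Met fl/fl values of all probes of the 7 genes except the brighter Lbh probe.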
